A study of Mus musculus with 27 samples.

Results

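The Myc, Max and Mxd network is a set of basic helix-loop-helix leucine zipper transcription factors, followed here as 10 mouse genes out of 38352 in the deposited tables. The members were taken by gene symbol: the Myc family genes Mycn, Myc and Mycl, the shared partner genes Max and Mlx, and the repressor genes Mnt, Mxd1, Mxd3, Mxd4 and Mxi1. Each symbol had 1 row, and all 10 passed the filter on low values (at least 1 FPKM in at least 3 libraries), which kept 13614 genes in all. Mxd1 and Mxd4 passed it through treated libraries alone, since no untreated library reached 1 FPKM for either.

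The cells were E14Tg2a, a wild-type mouse embryonic stem cell line, kept on gelatin in serum medium with leukemia inhibitory factor and 2i, an inhibitor pair that favours the naive pluripotent state. Treated cells received hydrogen peroxide (H2O2), an oxidant, for 30 min at 500 µM by the treatment protocol. The design text of the series has mM in place of µM, and the protocol's unit is used here. The peroxide medium was then exchanged for spent medium of untreated cultures. The 27 libraries of poly(A) RNA form 9 groups of 3 biological replicates: untreated at 0 h, treated cells taken 0.5 (the end of the exposure), 2, 4, 6, 8, 10 and 24 h after its start, and untreated at 24 h. The study set treated cells at 0.5 h to 10 h against untreated 0 h cells and treated 24 h cells against untreated 24 h cells, to ask how gene expression follows a transient exposure. No group is labelled as given the medium exchange alone, so from 2 h on peroxide and medium exchange cannot be told apart, and before 24 h neither can time in culture.

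Myc proteins bind DNA as dimers with Max, at the E-box CACGTG and related sites, and favour transcription of genes for growth, ribosome production and metabolism. Mxd proteins, Mxi1 and Mnt also dimerise with Max, bind the same sites and recruit Sin3 and histone deacetylase corepressors, so both families compete for Max and for DNA. Mlx is a Max-like protein that pairs with some Mxd proteins, with Mnt and with the glucose-sensing factors MondoA and ChREBP. In mouse embryonic stem cells Myc and Mycn sustain self-renewal and proliferation, and Max with Mga holds germ cell genes silent.

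On GRCm38 (the mm10 build of the files) with GENCODE M21 annotation, Mycn (ENSMUSG00000037169) lies on chromosome 12 from 12936093 to 12941914 and Max (ENSMUSG00000059436) on the same chromosome from 76937269 to 76962201, both on the minus strand. Myc (ENSMUSG00000022346) lies on chromosome 15 from 61985391 to 61990374 and Mycl (ENSMUSG00000028654) on chromosome 4 from 122995652 to 123002485, both on the plus strand. Mnt (ENSMUSG00000000282, 74830920 to 74845725) and Mlx (ENSMUSG00000017801, 101087277 to 101092207) share the plus strand of chromosome 11. Mxi1 (ENSMUSG00000025025) is on the plus strand of chromosome 19 from 53310518 to 53375810. The 3 Mxd genes are on minus strands: Mxd1 (ENSMUSG00000001156) on chromosome 6 from 86647042 to 86669161, Mxd3 (ENSMUSG00000021485) on chromosome 13 from 55325168 to 55329823, and Mxd4 (ENSMUSG00000037235) on chromosome 5 from 34173883 to 34187720. Mxd3 overlaps Prelid1 on the opposite strand (67.2 to 136 FPKM) and Mlx overlaps Psmc3ip on the opposite strand (9.28 to 16.5 FPKM). The strand setting of the counting is not given in the sources used here, so reads in those overlaps may be shared and the levels of Mxd3 and Mlx are uncertain to that extent.

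Network genes can carry the binding site of their own proteins, so promoters were scanned for the letters CACGTG, which read the same on both strands. RefSeq windows (GRCm38.p6) from 250 bases before to 50 bases after each annotated start were at hand for 9 members, all but Myc. The windows of 4 members held the letters: Max, Mlx, Mnt and Mxd4. Of all 32851 windows 7.15% held them, and of 9309 tested genes with a window 12.4% did. A match is a description of the letters, not evidence of binding. The windows with a match are printed from 250 bases before to 20 bases after the start, 5′ to 3′, with CACGTG in capitals, beside that of Mycn, the member that changed most. On the plus strand these are chr11:74830674-74830943 for Mnt and chr11:101087040-101087309 for Mlx. On the minus strand they are chr12:76962229-76962498 for Max, chr5:34187691-34187960 for Mxd4 and chr12:12941817-12942086 for Mycn.
Mycn: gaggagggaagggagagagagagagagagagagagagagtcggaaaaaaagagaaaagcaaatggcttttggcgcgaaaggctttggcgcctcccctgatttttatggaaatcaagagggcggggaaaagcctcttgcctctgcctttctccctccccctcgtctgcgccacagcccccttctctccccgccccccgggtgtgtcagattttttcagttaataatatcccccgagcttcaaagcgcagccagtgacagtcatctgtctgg
Max: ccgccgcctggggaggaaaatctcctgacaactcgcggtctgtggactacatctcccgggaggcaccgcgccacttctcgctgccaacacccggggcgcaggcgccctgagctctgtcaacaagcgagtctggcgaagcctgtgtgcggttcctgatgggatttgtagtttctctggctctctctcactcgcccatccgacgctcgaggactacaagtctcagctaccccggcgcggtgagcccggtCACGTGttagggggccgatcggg
Mlx: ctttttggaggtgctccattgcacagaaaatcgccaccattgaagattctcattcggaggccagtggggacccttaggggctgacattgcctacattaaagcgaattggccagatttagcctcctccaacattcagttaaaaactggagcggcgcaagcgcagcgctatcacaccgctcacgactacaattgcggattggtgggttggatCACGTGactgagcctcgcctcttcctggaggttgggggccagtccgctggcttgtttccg
Mnt: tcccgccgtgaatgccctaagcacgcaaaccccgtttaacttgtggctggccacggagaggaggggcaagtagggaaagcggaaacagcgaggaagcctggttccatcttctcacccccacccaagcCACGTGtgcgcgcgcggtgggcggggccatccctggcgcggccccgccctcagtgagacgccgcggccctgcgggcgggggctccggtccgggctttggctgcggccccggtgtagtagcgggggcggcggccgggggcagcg
Mxd4: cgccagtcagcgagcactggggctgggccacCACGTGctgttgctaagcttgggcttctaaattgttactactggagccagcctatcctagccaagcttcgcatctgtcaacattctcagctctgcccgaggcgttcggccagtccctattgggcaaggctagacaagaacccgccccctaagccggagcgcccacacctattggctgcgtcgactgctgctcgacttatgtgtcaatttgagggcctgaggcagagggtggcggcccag
The capitals begin 3 bases before the start in Max, 40 in Mlx, 123 in Mnt and 219 in Mxd4. The Mycn window holds no CACGTG.

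Values are FPKM (fragments by transcript length and by the library's mapped fragments), so absolute depth is unknown. Relative depth, read from steps between low values, lay between 0.982 and 1.10 with untreated 0 h replicate 1 set to 1. Per library 11516 to 12607 genes reached 1 FPKM. Embryonic stem cell markers were abundant in every library (10 genes, summed 2422 to 4305 FPKM). Libraries standing apart from the rest of their group in base composition were untreated 0 h replicate 3, 2 h replicate 1, 8 h replicate 3 and 10 h replicate 3. In these the slope of log2 expression on GC content was 0.212 to 0.378 per 10 points. The 4 h group as a whole lay at 0.134 to 0.212, and untreated 24 h replicate 1 at 0.187. Refits without the 4 libraries that stand apart kept the 4 h and untreated 24 h libraries. Transcripts of hepatocytes were uneven. The sum of 15 such genes was 44.6 to 69.8 FPKM in all 0.5 h and untreated 24 h libraries, 6 h replicate 3 and 8 h replicates 1 and 2, 7.07 FPKM in untreated 0 h replicate 3 and 1.12 to 2.02 FPKM elsewhere. Alb, the albumin gene, read 15.9 to 28.3 FPKM in the first set and 0 to 2.32 FPKM in the rest. Sums of 7 astrocyte genes were 2.87 to 15.7 FPKM, of fibroblast genes 0.987 to 2.32, of macrophage genes 14 to 27.7, of neuron genes 65.1 to 162 (65.1 to 68.3 at 6 h and 117 to 162 in untreated 0 h cells), of primitive endoderm genes 1.17 to 3.12 and of trophectoderm genes 17.1 to 45.9. Their part in the results was not tested, and values set beside them below are descriptions. In bulk RNA, fewer cells of a kind and less RNA per cell cannot be told apart.

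Mycn and Myc mRNA fell by 2 h, all 3 Myc family mRNAs were lowest at 4 h or 6 h, and most of the family's level was back by 24 h. Over the same hours Mnt and Mxd1 rose while Mxi1 and Mxd3 fell, so the repressor side of the network was split. Each change below is a difference between group means of log2(FPKM + 1), which makes changes of low genes look smaller than they are, with the standard error (SE) and a limma p adjusted over all 13614 tested genes by the Benjamini-Hochberg method. A gene is called changed at an adjusted p below 0.05.

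Mycn encodes N-Myc, the most abundant Myc family mRNA in these cells at the start. Its level was 33.1, 32.2 and 26.4 FPKM in untreated 0 h replicates 1, 2 and 3, and 34.8, 33.5 and 32.0 FPKM at 0.5 h. It read 19.8, 22.0 and 18.9 FPKM at 2 h, 4.74, 4.41 and 4.34 FPKM at 4 h, and 9.04, 8.17 and 7.87 FPKM at 6 h. At 8 h the values were 16.0, 17.2 and 17.4 FPKM and at 10 h 19.0, 18.1 and 17.9 FPKM. Every library from 2 h to 10 h lay below every untreated 0 h library, with the lowest point at 4 h and a partial return by 10 h. The change from untreated 0 h cells was −0.57 (SE 0.08, adjusted p = 0.000191) at 2 h, −2.51 (SE 0.08, adjusted p = 3.9e-15) at 4 h and −1.75 (SE 0.08) at 6 h. At 8 h it was −0.81 (SE 0.08) and at 10 h −0.70 (SE 0.08, adjusted p = 7.91e-07). In the authors' deposited tables the ratio of treated to untreated Mycn is 0.147 at 4 h and 0.274 at 6 h. Their q-values for these ratios are 1.73e-67 and 3.04e-32, and at 2 h their q-value is 0.112. The limma call of Mycn at 2 h was also lost with limma fitted only to the libraries compared. Of all 13614 genes, Mycn had the smallest p at 4 h.

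Myc encodes c-Myc, the founding member of the family. Untreated 0 h cells had 12.2, 12.6 and 13.8 FPKM and 0.5 h cells 13.3, 11.7 and 12.0 FPKM. Myc then read 7.24, 6.10 and 6.09 FPKM at 2 h, 4.97, 4.82 and 5.45 FPKM at 4 h, and 6.14, 6.29 and 6.47 FPKM at 6 h. By 8 h it stood at 9.88, 8.87 and 10.5 FPKM and by 10 h at 14.1, 12.9 and 15.9 FPKM. All libraries from 2 h to 8 h were below all untreated 0 h libraries, while at 10 h the values overlapped those of untreated cells and reached above them. Myc fell by 0.89 (SE 0.08, adjusted p = 9.88e-07) at 2 h, 1.19 (SE 0.08, adjusted p = 5.22e-10) at 4 h, 0.92 (SE 0.08) at 6 h and 0.37 (SE 0.08, adjusted p = 0.00121) at 8 h. At 10 h the change of 0.14 (SE 0.08, adjusted p = 0.201) did not pass. The Myc calls at 2 h and 8 h were lost with limma fitted only to the libraries compared.

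Mycl encodes L-Myc, the family member at the lowest level here. It read 3.05, 3.18 and 1.87 FPKM in untreated 0 h cells, 2.94, 2.90 and 3.41 FPKM at 0.5 h and 2.26, 3.20 and 2.84 FPKM at 2 h. The values were 0.669, 0.947 and 1.07 FPKM at 4 h and 1.04, 0.863 and 0.870 FPKM at 6 h. They were 2.05, 1.84 and 1.75 FPKM at 8 h and 2.86, 2.13 and 1.83 FPKM at 10 h. Mycl was not called at 2 h (0.04, SE 0.13), and its 4 h and 6 h libraries all lay below the untreated ones. Mycl fell by 0.95 (SE 0.13, adjusted p = 7.39e-06) at 4 h and 0.92 (SE 0.13) at 6 h. The call at 8 h (−0.34, SE 0.13, adjusted p = 0.038) rested on values that overlap those of untreated 0 h replicate 3. It was lost without untreated 0 h replicate 1 or 2 or without 8 h replicate 2 or 3, with adjusted p = 0.0909 to 0.159.

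**Figure D1:**
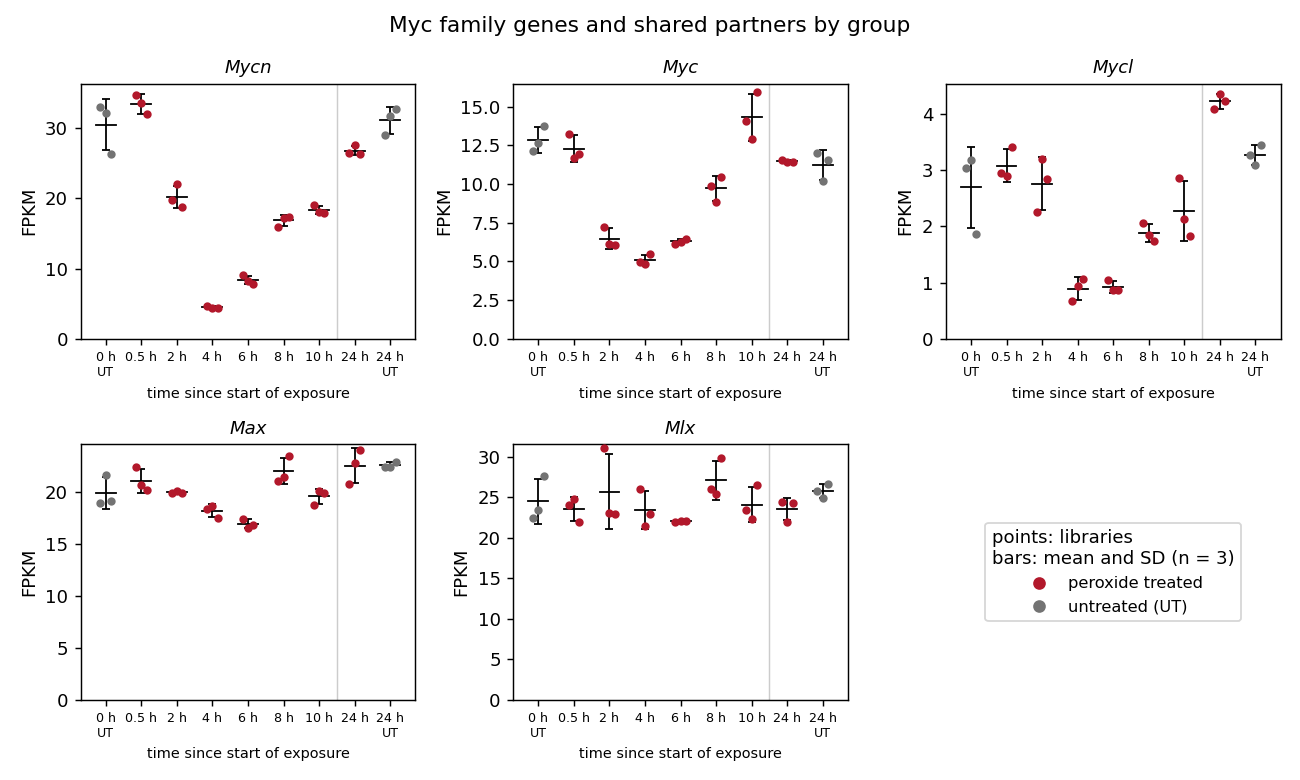
FPKM of the Myc family genes and of Max and Mlx in each library (points), with group mean and SD (n = 3), by time since the start of exposure; untreated groups are marked UT and the vertical line sets off the 24 h pair. Mycn at 4 h sits at 4.34 to 4.74 FPKM and at 26.4 to 33.1 FPKM in untreated 0 h cells, while Mlx stays within 21.4 to 31.0 FPKM throughout.

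Max encodes the shared partner of the Myc and Mxd proteins, and it moved little. The untreated 0 h libraries had 18.9, 21.6 and 19.2 FPKM. Treated cells had 18.4, 18.7 and 17.5 FPKM at 4 h, 17.4, 16.6 and 16.9 FPKM at 6 h and 21.1, 21.5 and 23.5 FPKM at 8 h. The 6 h libraries all lay below the untreated ones, and Max was called lower at that time alone (−0.22, SE 0.06, adjusted p = 0.00737). This call was lost without untreated 0 h replicate 2 (adjusted p = 0.0526). Mlx read 21.9, 22.0 and 22.1 FPKM at 6 h and 26.0, 25.4 and 29.9 FPKM at 8 h, against 22.4, 23.4 and 27.7 FPKM in untreated 0 h cells. Mlx passed in none of the 14 comparisons between groups, and its changes from the matched untreated group ranged from −0.14 to 0.14. The group means of Max spanned 0.39 and those of Mlx 0.28 on the log2 scale, against 2.65 for Mycn.

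Among the repressors, Mnt had the highest level, and it rose at 4 h, 8 h and 10 h but not at 6 h. Mnt encodes the widely expressed Max partner regarded as a general Myc antagonist. It read 8.92, 8.93 and 7.12 FPKM in untreated 0 h cells, 11, 11.4 and 11.5 FPKM at 4 h and 9.47, 8.64 and 8.67 FPKM at 6 h. The values were 15.0, 14.5 and 15.0 FPKM at 8 h and 11.5, 10.9 and 11.3 FPKM at 10 h. All libraries at 4 h, 8 h and 10 h exceeded the untreated ones, and the 6 h libraries overlapped them. Mnt rose by 0.41 (SE 0.07, adjusted p = 9.26e-05) at 4 h, 0.77 (SE 0.07, adjusted p = 1.61e-08) at 8 h and 0.40 (SE 0.07, adjusted p = 0.000131) at 10 h, and stood at 0.10 (SE 0.07, adjusted p = 0.276) at 6 h. The Mnt call at 8 h was kept in every refit, and those at 4 h and 10 h were lost with limma fitted only to the libraries compared. At 8 h the level in replicate 3, with 2.00 FPKM of hepatocyte transcripts, was 15.0 FPKM, with 15.0 and 14.5 FPKM in replicates 1 and 2, which held 64.1 and 55.6 FPKM of them. Replicate 3 is also one of the libraries that stand apart in base composition, and the part of these transcripts in the Mnt level was not tested.

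Mxd1, known as a repressor induced in differentiating cells, read 0.756, 0.985 and 0.474 FPKM in untreated 0 h cells and 1.62, 1.46 and 1.64 FPKM at 4 h. It reached 2.23, 2.02 and 2.33 FPKM at 6 h and 2.24, 2.48 and 2.02 FPKM at 8 h, and had 1.602, 1.65 and 1.38 FPKM at 10 h. All treated libraries from 4 h to 10 h exceeded the untreated ones. Mxd1 rose by 0.58 (SE 0.09, adjusted p = 6.4e-05), 0.89 (SE 0.09), 0.91 (SE 0.09) and 0.56 (SE 0.09, adjusted p = 0.000103) at 4, 6, 8 and 10 h. Because it lies near 1 FPKM the pseudocount shapes these sizes: with a pseudocount of 0.1 the change at 8 h was 1.53. Mxd1 passed the filter on low values through treated libraries alone, so its calls are not independent of that filter. Its calls at 4 h and 10 h were lost with limma fitted only to the libraries compared.

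Mxi1, also called Mxd2, went the other way. It had 2.93, 2.91 and 2.24 FPKM in untreated 0 h cells, 2.13, 2.08 and 1.93 FPKM at 4 h, 1.31, 1.17 and 1.13 FPKM at 6 h and 1.92, 1.79 and 2.24 FPKM at 8 h. The 4 h and 6 h libraries all lay below the untreated ones, and the 8 h libraries reached the lowest of these. Mxi1 fell by 0.27 (SE 0.07, adjusted p = 0.00805) at 4 h, 0.74 (SE 0.07, adjusted p = 5.36e-08) at 6 h and 0.31 (SE 0.07, adjusted p = 0.00247) at 8 h. The call at 6 h was kept in every refit, and those at 4 h and 8 h were lost with limma fitted only to the libraries compared.

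Mxd3, a member expressed in proliferating cells, read 2.04, 2.74 and 5.73 FPKM in untreated 0 h cells, where replicate 3 stands apart. It had 1.22, 1.00 and 1.22 FPKM at 4 h and 1.18, 0.749 and 1.35 FPKM at 6 h. These libraries all lay below the untreated ones, and Mxd3 fell by 0.98 (SE 0.20, adjusted p = 0.000646) at 4 h and 1.03 (SE 0.20, adjusted p = 0.000219) at 6 h. Without the 4 libraries that stand apart the changes were −0.65 at 4 h and −0.70 at 6 h, still called. Neither Mxd3 call was kept in every refit, and the call at 4 h was lost with limma fitted only to the libraries compared. Mxd4, the weakest of the repressor mRNAs, read 1.07, 0.950 and 1.15 FPKM at 8 h and 1.05, 1.24 and 1.02 FPKM at 10 h, against 0.591, 0.777 and 0.704 FPKM in untreated 0 h cells. The treated libraries lay above the untreated ones at both times. Mxd4 passed the filter on low values through treated libraries alone, so its calls are not independent of that filter. Mxd4 rose by 0.28 (SE 0.06, adjusted p = 0.00117) at 8 h and 0.32 (SE 0.06, adjusted p = 0.000599) at 10 h. Corrected for GC content and transcript length within each library, these were 0.05 (adjusted p = 0.614) and 0.13 (adjusted p = 0.138).

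**Figure D2:**
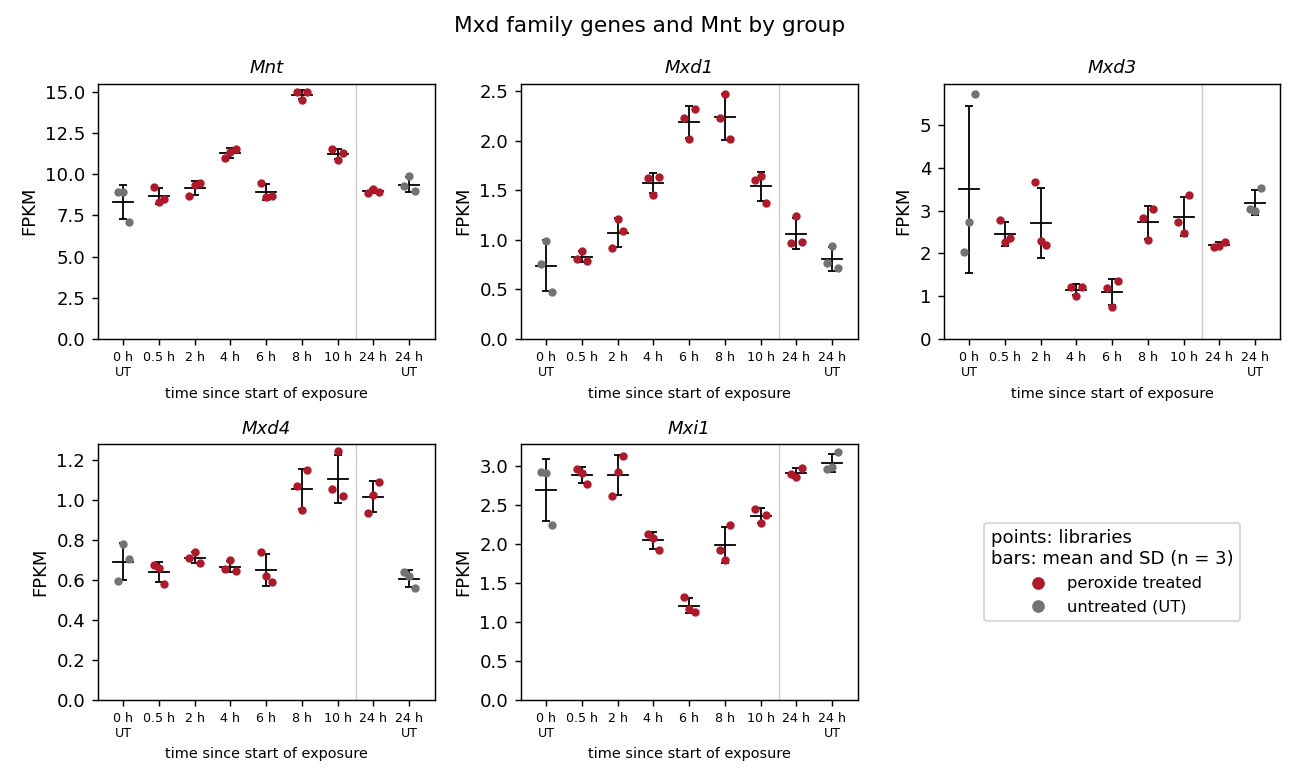
FPKM of Mnt and the Mxd family genes in each library (points), with group mean and SD (n = 3), by time since the start of exposure; untreated groups are marked UT. Mnt peaks at 8 h (14.5 to 15.0 FPKM), Mxd1 at 6 h and 8 h (2.02 to 2.48 FPKM), and Mxi1 is lowest at 6 h (1.13 to 1.31 FPKM).

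Counted over the network, 0 of 10 members were called by limma at 0.5 h, where 0.0808% of all tested genes were (0.0147% higher and 0.0661% lower), and 0 members had an unadjusted p below 0.05. At 2 h 2 members were lower, Mycn and Myc, beside 1.07% of all genes (0.499% higher and 0.566% lower). At 4 h 7 were called, 2 higher and 5 lower, beside 26.3% of all genes. The counts were 7 at 6 h (1 higher and 6 lower, beside 42.3%), 7 at 8 h (3 higher and 4 lower, beside 40.7%) and 4 at 10 h (3 higher and 1 lower, beside 31.7%). Comparisons from 0.5 h to 10 h share the untreated 0 h libraries, so these counts are not independent of each other. Members counted as higher include Mxd1 from 4 h to 10 h and Mxd4 at 8 h and 10 h. Both passed the filter on low values through treated libraries alone. At 8 h the median change of all tested genes was 0.11, and 0.01 after median-of-ratios scaling. On the scaled values Mnt stood at 0.65, Mxd1 at 0.84, Mxd4 at 0.22, Mycn at −0.94, Myc at −0.49, Mycl at −0.43 and Mxi1 at −0.40 at that time, all still called. With limma fitted only to the 6 libraries of each comparison, 0 members were called at 2 h, 3 at 4 h (Mycn, Myc and Mycl), 3 at 8 h (Mycn, Mxd1 and Mnt) and 1 at 10 h (Mycn).

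**Figure D3:**
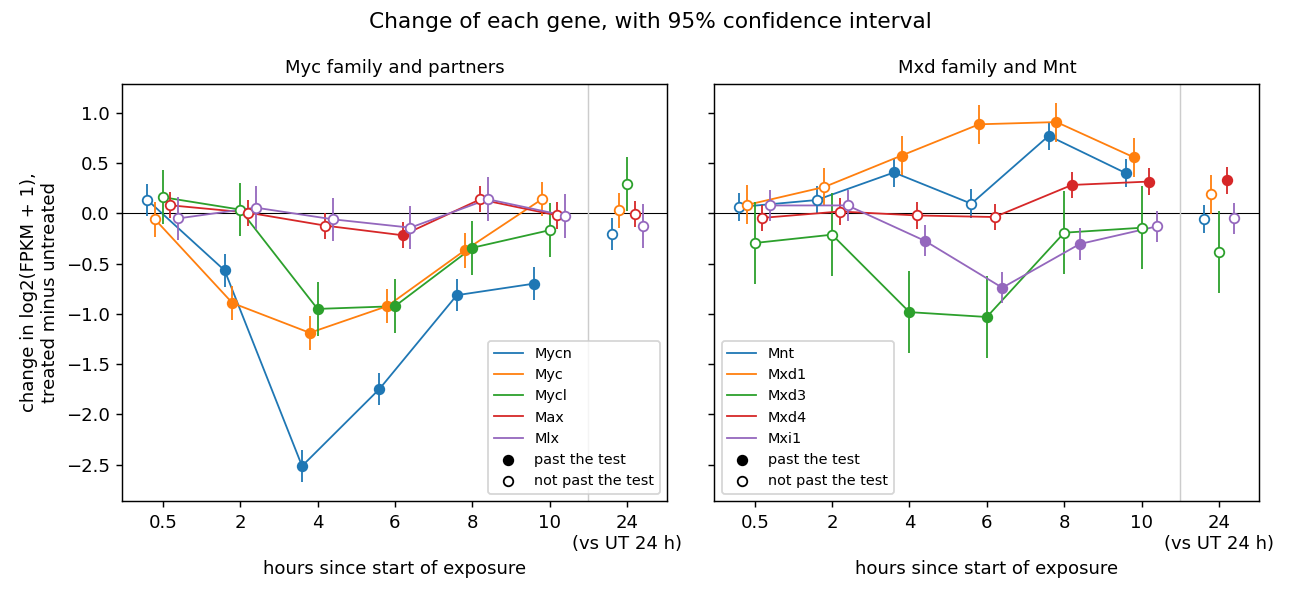
Change in log2(FPKM + 1) of each member, treated minus untreated, with 95% confidence interval, against untreated 0 h cells for 0.5 h to 10 h and against untreated 24 h cells for 24 h; filled points passed the limma test at an adjusted p below 0.05. Mycn reaches −2.51 at 4 h, and on the repressor side Mnt and Mxd1 lie above 0 at 8 h (0.77 and 0.91) where Mxi1 lies below (−0.31).

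Steps between consecutive treated times, whose differences contain no untreated group, placed these changes in time. Their errors come from the same model over all 27 libraries, and each step shares a group with the one before. From 0.5 h to 2 h Myc (−0.83) and Mycn (−0.70) fell, 2 of 10 members beside 1.17% of all genes (0.367% higher and 0.801% lower). From 2 h to 4 h 7 members moved, beside 20.1% of all genes (10.2% higher and 9.89% lower). Mycn (−1.95), Mycl (−0.99), Mxd3 (−0.77), Mxi1 (−0.35) and Myc (−0.30) fell, and Mxd1 (0.31) and Mnt (0.27) rose. Without 2 h replicate 1, a library that stands apart, 4 members were called at this step. The calls of Myc, Mxd3 and Mxd1 were lost (adjusted p = 0.0793, 0.0505 and 0.0894). The Myc call was also lost without 4 h replicate 2, the Mxd1 call without 4 h replicate 1 or 3, and the Mnt call after the GC and length correction (adjusted p = 0.122). From 4 h to 6 h Mycn turned upward (0.77), Mxi1 (−0.47) and Mnt (−0.31) fell, and Mxd1 (0.31) and Myc (0.27) rose, 5 members beside 20.1% of all genes (11.6% higher and 8.48% lower). Myc and Mxd1 lost this call without 4 h replicate 2, without 6 h replicate 1 or without 6 h replicate 3, which left 3 members each time. Myc also lost it without 4 h replicate 1 or 6 h replicate 2, and Mnt after the GC and length correction (adjusted p = 0.191).

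From 6 h to 8 h 8 members rose and 0 fell, beside 24.1% of all genes (18.1% higher and 6.02% lower). Mxd3 (0.84), Mycn (0.93), Mycl (0.58), Myc (0.55) and Mnt (0.68) had changes above 0.5, and Mxi1, Max and Mxd4 rose by smaller amounts. Median-of-ratios scaling left 8 members higher and 0 lower at this step, while all genes split into 1763 higher and 1514 lower, against 2465 and 820 without it. Mxd1 (0.02, SE 0.09) and Mlx (0.28, SE 0.10, adjusted p = 0.0537) did not pass. From 8 h to 10 h Myc rose by 0.51, while Mnt fell by 0.37 and Mxd1 by 0.35, 3 members beside 5.37% of all genes (1.78% higher and 3.58% lower). The Mxd1 call was lost without any 1 of the 10 h libraries and without 8 h replicate 1 or 2 (adjusted p = 0.0565 to 0.15), and the Mnt call after the GC and length correction (adjusted p = 0.173).

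At 24 h, against untreated cells of the same age in culture, 1 of 10 members was called, beside 12.9% of all genes. Mxd4 read 0.934, 1.02 and 1.09 FPKM in treated 24 h cells, against 0.638, 0.621 and 0.557 FPKM in untreated 24 h cells, with no overlap, and was higher by 0.33 (SE 0.06, adjusted p = 0.00174). The Mxd4 call is for a gene that passed the filter on low values through treated libraries alone, and it was kept with no filter. Treated 24 h libraries held 1.20 to 1.77 FPKM of hepatocyte transcripts and untreated 24 h libraries 44.6 to 60.3 FPKM. Trophectoderm sums were 40.5 to 45.9 FPKM in treated and 27.9 to 32.4 FPKM in untreated 24 h libraries, and primitive endoderm sums 2.50 to 3.12 and 1.35 to 1.52 FPKM. The slope on GC content was −0.03 to 0.00 in treated and 0.03 to 0.19 in untreated 24 h libraries, again without overlap, and after the GC and length correction Mxd4 stood at 0.22 (adjusted p = 0.0316). The part of these marker sums in the 24 h values was not tested. Mycn read 26.5, 27.5 and 26.4 FPKM in treated 24 h cells, against 29.0, 31.8 and 32.7 FPKM in untreated 24 h cells. These values do not overlap, but the change of −0.21 (SE 0.08) missed the threshold (adjusted p = 0.0779). Mycl read 4.09, 4.36 and 4.23 FPKM in treated 24 h cells, against 3.27, 3.09 and 3.45 FPKM in untreated 24 h cells, also without overlap, at 0.29 (SE 0.13, adjusted p = 0.128). Mxd1 read 0.972, 1.24 and 0.976 FPKM in treated and 0.767, 0.940 and 0.712 FPKM in untreated 24 h cells. Mxd3 read 2.15, 2.18 and 2.27 against 3.04, 3.00 and 3.52 FPKM, and Mlx 24.4, 21.9 and 24.3 against 25.7, 24.8 and 26.6 FPKM. These did not overlap either and were not called. The authors' q-values at 24 h were below 0.05 for Mycn (0.000725), Mxd4 (0.000822), Mxd3 (0.000912) and Mlx (0.0454) alone. Myc overlapped between the groups, with 11.5, 11.4 and 11.4 FPKM in treated and 12.0, 10.2 and 11.5 FPKM in untreated 24 h cells. The spread estimated over all 9 groups includes the 4 libraries set apart above, none of them at 24 h. Without them 5 members were called, Mycn, Mycl, Mxd1, Mxd3 and Mxd4, and 51.3% of all genes.

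Between the untreated groups, 0 members differed from 0 h to 24 h by limma (3 at an unadjusted p below 0.05: Max, Mnt and Myc), beside 0.705% of all genes (0.426% higher and 0.279% lower). The effect at 24 h was tested against the effect at 10 h, each with its own control. It differed for 2 members, beside 8.70% of all genes (2.95% higher and 5.75% lower). Mycn was 0.49 (SE 0.11, adjusted p = 0.00626) closer to its control at 24 h than at 10 h, and the effect on Mnt differed by −0.45 (SE 0.10, adjusted p = 0.00418), with −0.06 at 24 h and 0.40 at 10 h. The Mnt difference was lost after the GC and length correction (−0.34, adjusted p = 0.316), and both were lost with limma fitted only to the libraries compared (adjusted p = 0.0829 for Mycn and 0.0946 for Mnt).

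Summed levels show the balance of the families in each library, since FPKM is per length. The Myc family sum was 48.3, 48.0 and 42.0 FPKM in untreated 0 h cells, 10.4, 10.2 and 10.9 FPKM at 4 h and 27.9, 27.9 and 29.6 FPKM at 8 h. The Mxd family and Mnt together had 15.2, 16.3 and 16.3 FPKM in untreated 0 h cells, 16.6, 16.6 and 17.0 FPKM at 4 h and 23.1, 22.1 and 23.4 FPKM at 8 h. The Myc family was thus the larger sum in every untreated library and the smaller one in every 4 h library. The ratio of the sums averaged 2.90 ± 0.296 (SD, n = 3) in untreated 0 h cells, 3.15 ± 0.0502 at 0.5 h, 1.78 ± 0.110 at 2 h, 0.626 ± 0.0135 at 4 h, 1.11 ± 0.0446 at 6 h, 1.25 ± 0.0306 at 8 h and 1.83 ± 0.0350 at 10 h. At 24 h it was 2.63 ± 0.0373 in treated cells and 2.68 ± 0.118 in untreated cells. Treated and untreated ratios did not overlap at any time from 2 h to 10 h. The exact permutation test (two-sided, 3 against 3) gave p = 0.1 at each of these, the smallest p it can give, with log2 differences of −0.70, −2.21, −1.38, −1.21 and −0.66. At 24 h the difference was −0.03 (exact permutation p = 0.7).

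Mycn and Mnt hold much of these sums. Mycn made up 66.1% ± 2.99 of the Myc family sum in untreated 0 h cells and 43.0% ± 2.85 at 4 h (SD, n = 3). Its ratio to Myc was 2.39 ± 0.425 in untreated 0 h cells, 3.14 ± 0.441 at 2 h and 0.889 ± 0.0814 at 4 h. Mycn thus stood below Myc in every 4 h library and above it in every other library. Mnt made up 67.5% ± 1.25 of the repressor sum at 4 h and 65.0% ± 0.981 at 8 h, against 52.3% ± 7.65 in untreated 0 h cells. The untreated 0 h shares were 58.5%, 54.6% and 43.8% in replicates 1, 2 and 3, the last being a library that stands apart. With the median log2 level of each family in place of its sum, the differences were −0.96 at 4 h, −0.38 at 6 h, −0.34 at 8 h and 0.12 at 10 h, and at 24 h the difference was 0.37. The direction therefore depends on summing at 10 h and at 24 h, where this median measure was 1.93 to 1.99 in treated cells and 1.49 to 1.71 in untreated cells, without overlap.

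**Figure D4:**
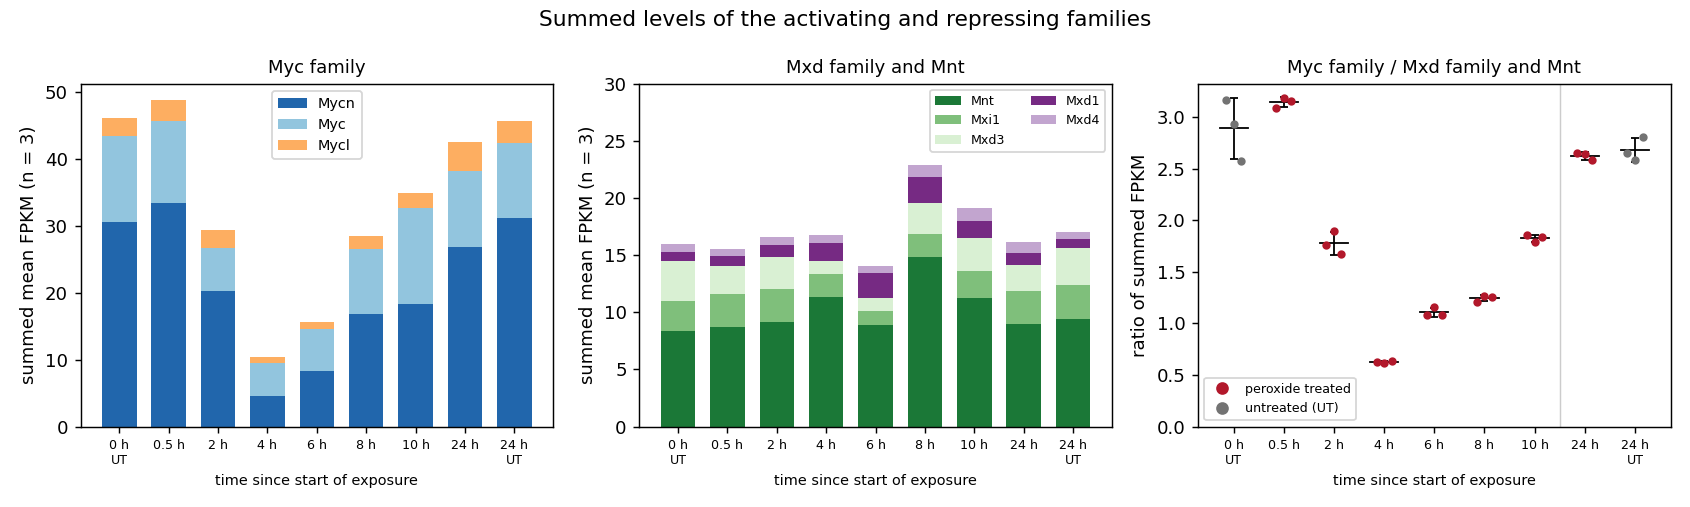
Summed mean FPKM of the Myc family (left) and of the Mxd family and Mnt (middle), stacked by gene, and the ratio of the sums in each library with mean and SD (n = 3, right), by time since the start of exposure. The ratio is lowest at 4 h (0.626) and at 24 h is 2.63 in treated and 2.68 in untreated cells.

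Growth genes known as direct Myc targets were followed as a list of 40, all tested. The list holds genes for ribosome production, translation, nucleotide and polyamine synthesis, and others outside these functions, such as Apex1 and Tert. At 4 h, the low point of the Myc family, 5 were higher and 3 lower, beside 14.2% and 12.1% of all genes. At 6 h 5 were higher and 17 lower (all genes 22.3% and 20.0%), at 8 h 2 and 17 (29.2% and 11.6%), at 10 h 1 and 16 (22.2% and 9.43%), and at 24 h 1 and 10 (8.63% and 4.28%). The list's median change was 0.08 at 4 h, −0.17 at 6 h, −0.24 at 8 h, −0.25 at 10 h and −0.10 at 24 h, where that of all tested genes was 0.01, 0.00, 0.11, 0.11 and 0.07. Without the 4 libraries that stand apart the counts were 14 higher and 12 lower at 4 h, with a median of −0.02, and 1 higher and 31 lower at 10 h. Over all 13614 genes that setting gave 3111 higher and 3772 lower calls at 4 h, with 3484 and 1930 at 10 h. After median-of-ratios scaling 26 of the list were lower at 8 h and 27 at 10 h. All genes then split into 3068 higher and 2335 lower at 8 h and 2380 higher and 1786 lower at 10 h, against 3969 and 1576 at 8 h and 3025 and 1284 at 10 h without it.

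Apex1, a DNA repair endonuclease and redox factor, had 79.5, 85.7 and 83.5 FPKM at 6 h, against 152, 161 and 137 FPKM in untreated 0 h cells, a fall of 0.84 (SE 0.08, adjusted p = 3.81e-08). Ppan, a ribosome assembly factor, fell by 0.57 (SE 0.16, adjusted p = 0.00648), with untreated 0 h replicate 3 at 61.6 FPKM and replicates 1 and 2 at 36.4 and 40.3 FPKM. Tert, the telomerase reverse transcriptase, and Cad, which starts pyrimidine synthesis, moved up. Tert read 5.54, 4.38 and 4.75 FPKM at 6 h, against 2.63, 2.55 and 1.14 FPKM in untreated 0 h cells (0.96, SE 0.17, adjusted p = 0.000112). Cad rose by 0.53 (SE 0.17, adjusted p = 0.0161). The other 3 higher genes at 6 h were Pa2g4, Pes1 and Gnl3, named after their values were seen. Of 33 listed genes with a promoter window 12 held CACGTG, which is 36.4%, beside 12.4% of tested genes.

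**Figure D5:**
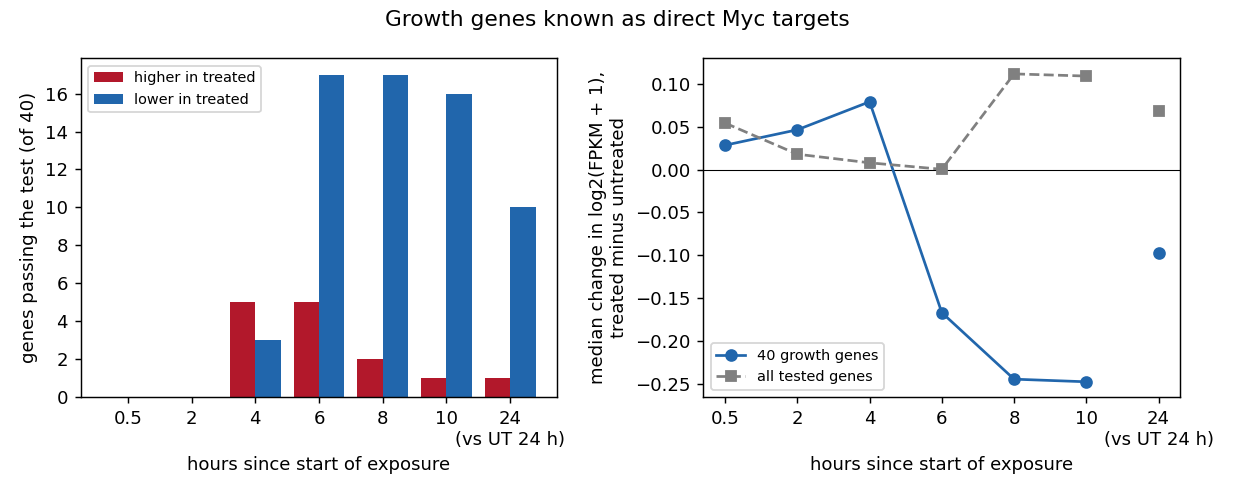
Left, number of the 40 growth genes past the limma test in each direction at each treated time; right, their median change in log2(FPKM + 1) (circles) and that of all tested genes (squares), treated minus untreated. The list's median is above 0 at 4 h (0.08) and lowest at 8 h and 10 h (−0.24 and −0.25).

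Genes that Myc represses through the zinc finger factor Miz1 include inhibitors of cyclin-dependent kinases. The list of 8 genes also holds Zbtb17, which encodes Miz1 itself, and 7 were tested. Of these 4 were higher and 1 lower at 4 h, and 4 higher and 0 lower at 6 h and again at 8 h. Zbtb17, named after its values were seen, was among the higher genes at 6 h (0.29, SE 0.09) and 8 h (0.24, SE 0.09). The list's median change at 6 h, 0.29, is the value of Zbtb17. Of all genes 14.2%, 22.3% and 29.2% were higher at 4, 6 and 8 h, and 26.3%, 42.3% and 40.7% were called in either direction. Cdkn2b, which encodes p15, had 4.46, 4.64 and 4.90 FPKM at 6 h, against 1.81, 1.42 and 2.04 FPKM in untreated 0 h cells (1.04, SE 0.11, adjusted p = 7.75e-08). Cdkn1a, which encodes p21 and is also a p53 target, rose by 0.98 (SE 0.09) at 4 h and 0.94 (SE 0.09) at 6 h. Gadd45a, another damage-responsive gene, rose by 0.31 (SE 0.10) and 0.58 (SE 0.10) at these times. Cdkn1b, which encodes p27, fell by 0.70 (SE 0.18, adjusted p = 0.00443) at 4 h and rose by 0.63 (SE 0.18, adjusted p = 0.00667) at 8 h.

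Of 17 factors that control the stability of Myc proteins, all tested, 2 were higher and 4 lower at 4 h (all genes 14.2% and 12.1%), and 3 higher and 5 lower at 6 h (22.3% and 20.0%). The medians were −0.10 and −0.08. The total called at 6 h is near the share of all genes (42.3%). Fbxw7, the ubiquitin ligase subunit that marks phosphorylated Myc proteins for degradation, had 18.9, 19.99 and 18.7 FPKM at 6 h, against 7.93, 7.81 and 7.08 FPKM in untreated 0 h cells. It rose by 1.06 (SE 0.09, adjusted p = 2.22e-08) at 4 h and 1.23 (SE 0.09, adjusted p = 9.19e-10) at 6 h and was also higher at 24 h (0.51, SE 0.09, adjusted p = 0.00124). Aurka, the mitotic kinase known to stabilise N-Myc protein, read 28.03, 29.1 and 26.8 FPKM at 4 h, against 57.5, 60.6 and 55.9 FPKM in untreated 0 h cells (−1.02, SE 0.05). Plk1, a mitotic kinase that also counters Fbxw7, fell by 0.91 (SE 0.07) at 4 h and 1.45 (SE 0.07) at 6 h. Trim32, another ubiquitin ligase, rose by 0.51 (SE 0.15) and 0.85 (SE 0.15). These are mRNA levels, and protein was not measured.

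Of 13 Myc activation cofactors 3 were higher and 0 lower at 4 h, and 3 higher and 2 lower at 6 h, near the shares of all genes called (26.3% and 42.3%). Ccnt1, the cyclin T1 subunit of the elongation kinase P-TEFb, rose by 1.16 (SE 0.27, adjusted p = 0.00162) at 6 h, and its kinase subunit Cdk9 rose by 0.29 (SE 0.08). Ruvbl1, an ATPase of chromatin remodelling complexes, and Wdr5, a histone methyltransferase subunit, both fell by 0.30 (SE 0.07 and 0.10). Of 10 corepressors of Mxd and Mnt 3 were higher and 1 lower at 4 h, and 3 higher and 3 lower at 6 h, beside the same 26.3% and 42.3% of all genes. Sap30, a Sin3 complex subunit, fell by 0.77 (SE 0.16) at 4 h and 0.97 (SE 0.16) at 6 h. Sin3a, the scaffold that Mxd proteins and Mnt bind, had 19.2, 18.5 and 18.1 FPKM at 6 h, against 33.9, 33.4 and 18.9 FPKM in untreated 0 h cells (−0.55, SE 0.18, adjusted p = 0.0195). Hdac1 was higher at 4 h (0.29, SE 0.10, adjusted p = 0.0435), where untreated 0 h replicate 3 again read lowest (44.7 FPKM, with 65.8 and 65.3 in replicates 1 and 2).

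The genes on the Mlx branch moved although Mlx itself was not called. Txnip, which inhibits thioredoxin, and Arrdc4, a related arrestin-domain gene, are known targets of MondoA with Mlx. Txnip had 10.4, 11.1 and 9.90 FPKM at 4 h, against 68.6, 63.4 and 48.0 FPKM in untreated 0 h cells (−2.40, SE 0.10, adjusted p = 3.88e-13). Arrdc4 had 3.79, 3.82 and 4.65 FPKM at 6 h, against 10.9, 10.7 and 10.3 FPKM in untreated 0 h cells (−1.20, SE 0.08, adjusted p = 2.17e-10). Both were lower at 4, 6, 8 and 10 h, where 12.1%, 20.0%, 11.6% and 9.43% of all genes were lower. Txnip was already lower at 2 h (−0.96, SE 0.10, adjusted p = 8.79e-06), beside 0.566% of all genes, while Arrdc4 was not called then (0.04, SE 0.08). At 24 h Txnip was higher than in untreated 24 h cells (0.58, SE 0.10, adjusted p = 0.000965). The dimer partners outside the member list did not pass before 24 h. Mlxip, which encodes MondoA, stood at 0.07 (SE 0.19) at 6 h, and Mga at 0.31 (SE 0.33). Mlxipl, which encodes ChREBP and was named after its values were seen, was higher at 24 h (0.40, SE 0.10, adjusted p = 0.0085).

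Of 13 subunits of PRC1.6, the Polycomb complex that Mga and Max direct to germ cell genes, 1 was higher and 0 lower at 4 h, and 0 higher and 5 lower at 6 h, where 20.0% of all genes were lower and 42.3% called. The 5 included Ring1 (−0.67, SE 0.19), Yaf2 (−0.51, SE 0.15), Cbx3 (−0.45, SE 0.14) and Wdr5. Of 15 germ cell genes known to be held silent by Max with Mga 12 were tested. At 6 h 1 was higher and 2 lower, and at 24 h 4 were higher and 0 lower, with a median of 0.46 where that of all genes was 0.07 and 8.63% of all genes were higher. Sycp3, a synaptonemal complex gene, rose by 0.53 (SE 0.09, adjusted p = 8.12e-05) at 4 h and 0.34 (SE 0.09) at 6 h, while Stk31 (−0.48, SE 0.15) and Mael (−0.46, SE 0.10) fell at 6 h. The 4 genes higher at 24 h, named after their values were seen, were Taf7l (0.78, SE 0.11, adjusted p = 6.28e-05), Sycp1 (0.67, SE 0.19), Dazl (0.61, SE 0.12) and Hormad1 (0.42, SE 0.10). With the 4 libraries that stand apart left out, 10 were higher and 0 lower at 24 h, where 4503 of all 13614 genes were higher and 51.3% called. Between the untreated groups the median of these 12 genes was −0.32 at 24 h relative to 0 h, with 0 higher and 1 lower. The differences in hepatocyte and other marker sums and in GC slope between treated and untreated 24 h libraries apply here too, and their part was not tested.

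Likeness of pattern was measured as Pearson's r over the 9 group means, among 6505 tested genes with a mean of at least 5 FPKM, for the 3 members with the widest range. Closest to Mycn were Sall4 (0.988), a pluripotency transcription factor, Zbtb45 (0.985) and Zic2 (0.985). Sall4 averaged 15.0 FPKM at 4 h and 42.7 FPKM in untreated 0 h cells. Closest to Mycl were Mmp11 (0.980), Taf5l (0.978) and Gtf2a1 (0.974), and closest to Myc were Lgr4 (0.953), Prr13 (0.928) and Fgf4 (0.911). Within the network r was 0.917 for Mycn with Mycl, 0.810 for Mycn with Myc, 0.857 for Mycn with Mxd3 and −0.861 for Mxd1 with Mxi1. All genes share the same libraries, and these values are descriptions with no test.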

How the data were processed

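Paired-end libraries of poly(A) RNA were made with a stranded kit, per the labels' protocols. Trimming, alignment and quantification tools are given in the submitters' processing notes as HISAT2, StringTie, cutadapt, FastQC and edgeR, on mm10, without versions. The authors deposited 7 tables of 38352 genes with FPKM per library, scaled by transcript length and mapped fragments, and with their own ratio (fold change), log2 ratio, p-value and q-value for each comparison. Libraries repeated across them gave 15 deposited columns to compare, and 0 differed. Absolute depth is unknown, and no counting interval can be given.

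From the FPKM values, log2(FPKM + 1) was fitted in limma 3.58.1 (R 4.3.3) for the 13614 genes with at least 1 FPKM in at least 3 libraries. One model of 9 group means over 27 libraries, with a mean-variance trend, gave 14 comparisons, each adjusted over all tested genes. Family ratios were compared with exact permutation tests (scipy 1.17.1). The series describes 3 independent time courses and gives numbers 1 to 3 as biological replicates, without stating that a number marks 1 course. Deviations of same-numbered libraries correlated above 0.1 in all 3 pairs for 8 h (0.464, 0.464 and 0.691) and 10 h (0.558, 0.566 and 0.797) against untreated 0 h, and not in the other comparisons. With the replicate block the members called stayed at 7 at 8 h and 4 at 10 h.

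The members, gene lists and marker lists were chosen with earlier results of these data known. Genes named from the lists are up to 4 per list, with the largest absolute change among those called at 4 h or 6 h (up to 2 of highest mean FPKM where none was called), others being marked as named after their values were seen. Alternatives covered the pseudocount, filter, scaling, block, weights, GC and length correction (13602 genes with both), the libraries fitted, and each library left out.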

Additional observations from a re-analysis of the deposited data

Results flagged for a closer look

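The effect of treatment on Mycn differed between 24 h and 10 h, each against its own untreated group, by 0.49 on the log2 scale (limma, SE 0.11, adjusted p = 0.00626), with effects of −0.21 at 24 h and −0.70 at 10 h. The effect on Mnt differed by −0.45 (SE 0.10, adjusted p = 0.00418), with effects of −0.06 at 24 h and 0.40 at 10 h. Both were picked out because the test of the difference itself passed. The treated 24 h libraries are compared with untreated libraries rich in hepatocyte transcripts and the 10 h libraries with ones that are not, and the part of this in either difference was not tested.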

How the results depend on the processing

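Of 140 member changes 55 were called, and 26 of these kept their call in every refit that gave them a value, the minimum change of 2-fold not counted; none of the 55 reversed in these refits. Under settings other than leaving out 1 library, 570 of 607 values of called changes kept direction and call and 37 lost the call, 25 of them with only the libraries compared, 7 with the GC and length correction, 3 with a pseudocount of 0.1 and 2 with no filter. With a minimum change of 2-fold, members called were 2 at 4 h, 2 at 6 h, 1 from 2 h to 4 h, and 0 at 2 h, 8 h, 10 h and 24 h, for the effect difference and at the other steps. With a filter of 5 FPKM they were 3 at 4 h, 6 h and 8 h, 2 at 10 h, 0 at 24 h, 3 from 2 h to 4 h, 3 from 4 h to 6 h and 4 from 6 h to 8 h, with fewer members tested. With only the libraries compared they were 0 at 2 h, 3 at 4 h, 3 at 8 h, 1 at 10 h, 4 at 24 h, 0 for the effect difference, 1 from 0.5 h to 2 h, 3 from 2 h to 4 h and 0 from 8 h to 10 h. At 24 h, where 1 was called, there were 2 with median-of-ratios scaling, 3 with both untreated groups as control, 5 with array weights, 2 with the GC and length correction and 5 without the 4 libraries that stand apart. Without those libraries 1 member, Mxd3, differed between untreated 24 h and 0 h, with its change reversed to 0.31 (limma adjusted p = 0.0468), and 4 differed in effect between 24 h and 10 h. Array weights gave 4 from 0.5 h to 2 h. Leaving out 1 library in turn gave 4 to 7 members from 2 h to 4 h and 3 to 5 from 4 h to 6 h. With the median of member log2 values in place of the sum, the family difference was −0.12 at 0.5 h (0.13 with the sum), −0.91 at 2 h, −0.96 at 4 h, −0.38 at 6 h, −0.34 at 8 h, 0.12 at 10 h (−0.66 with the sum) and 0.37 at 24 h (−0.03 with the sum), so the sign turned at 0.5 h, 10 h and 24 h. With the replicate block the counts were 7 at 8 h, 4 at 10 h and 9 from 6 h to 8 h (Mlx added), and with the block and scaling 2 at 24 h. Where no construction of the setting shows it, the cause was not tested. Unknown depth limits what can be said of Mxd1 and Mxd4, near 1 FPKM. Among member calls against untreated cells, the authors' q-value was above 0.05 for Mycn at 2 h (0.112) and Max at 6 h (0.261). It was also above 0.05 for Mnt at 4 h (0.104) and 10 h (0.604) and for Mxi1 at 4 h (0.128). For Mxd4 it was 0.373 at 8 h and 0.353 at 10 h. The other member calls against untreated cells had q-values below 0.05.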
